A study of Mus musculus with 8 samples.

Results

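The genes of the MHC class II antigen presentation pathway and their master regulator Ciita were examined in ATAC-seq peak lists of hippocampal microglia. There were 7 genes: H2-Aa, H2-Ab1, H2-Eb1, H2-DMa, H2-DMb1, Cd74 and Ciita. They are 7 of 21887 protein-coding genes that RefSeq places on GRCm38.p6, an assembly whose coordinates are those of the submitters' mm10 build. A locus was the span of a gene with 20 kb on each side, and every peak that overlapped a locus by at least 1 bp was taken and counted once where loci overlapped. This gave 140 of the 180156 peaks in 8 lists, and 42 of 52251 regions after peaks of all libraries that shared at least 1 bp were merged.

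ATAC-seq uses a transposase to cut open chromatin, so that accessible sites yield local excesses of reads, which are called as peaks. The FGR group held 4 libraries, from mice whose growth was restricted in the womb, and the control (Ctrl) group held 4 libraries. All libraries came from hippocampal microglia at 3 weeks of age and carried the genotype Tmem119-tdTomato+/-, in which a red fluorescent protein is joined to a microglial marker gene. The comparison asks whether growth restriction leaves a difference in the open chromatin of these genes. The sources used here do not state how growth was restricted, the sex, the number of animals per library or any sorting of the cells, so that p-values measure only the spread between these libraries.

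MHC class II molecules present peptides taken up from outside the cell to CD4 T cells. An alpha and a beta chain pair in the endoplasmic reticulum with the invariant chain, and the DM proteins later exchange the remnant of that chain for a peptide. Transcription of all these genes depends on Ciita, a coactivator that does not bind DNA itself. It is held at the promoters by RFX on the X1 box, CREB-family factors on the X2 box and NF-Y on the Y box. In the resting brain, microglia are known for low levels of class II molecules, which rise after interferon gamma, while border macrophages and dendritic cells show higher levels.

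The promoter sequences are shown because peaks of most libraries lay on those of H2-Aa and H2-DMb1, and those of few on that of H2-Eb1. RefSeq windows of assembly GRCm38.p6, from 250 bases before to 50 bases after an annotated start, were held for 4 of the 7 genes, H2-Aa, H2-Eb1, H2-DMa and H2-DMb1. The 250 bases before the start are printed from 5′ to 3′ on the strand of the gene for the 3 whose windows hold matches to both the X and the Y motifs. Capitals mark exact matches on either strand to the Y box core CCAAT, the X1 box core ACNGATG (N is any base) or the X2 core TGACG.
H2-Aa, chr17:34287824-34288073, minus strand: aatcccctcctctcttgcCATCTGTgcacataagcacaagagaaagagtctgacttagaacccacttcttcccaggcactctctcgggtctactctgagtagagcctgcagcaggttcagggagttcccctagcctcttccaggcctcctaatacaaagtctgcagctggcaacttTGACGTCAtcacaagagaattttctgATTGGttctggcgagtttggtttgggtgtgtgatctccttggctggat
H2-DMb1, chr17:34152941-34153190, plus strand: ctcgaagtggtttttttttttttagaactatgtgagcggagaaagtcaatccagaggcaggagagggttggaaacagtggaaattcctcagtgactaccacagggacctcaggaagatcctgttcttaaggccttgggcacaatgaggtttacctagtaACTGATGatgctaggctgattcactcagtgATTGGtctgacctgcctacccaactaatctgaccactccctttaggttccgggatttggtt
H2-Eb1, chr17:34305617-34305866, plus strand: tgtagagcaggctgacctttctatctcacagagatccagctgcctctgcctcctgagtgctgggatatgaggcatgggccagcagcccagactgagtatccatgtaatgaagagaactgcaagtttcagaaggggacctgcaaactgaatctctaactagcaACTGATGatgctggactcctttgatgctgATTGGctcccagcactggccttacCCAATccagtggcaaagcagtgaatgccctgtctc
In H2-DMb1 the X1 core lay 91 to 85 bases before the start and the reversed Y core 61 to 57 bases before it, with 23 bases between them. In H2-Eb1 the X1 core lay 88 to 82 and the reversed Y core 59 to 55 bases before the start, with 22 bases between. H2-Aa had no X1 core next to its Y core, but an X2 core 74 to 70 bases before the start, which overlapped a second match on the other strand at 71 to 67 bases. There 21 bases separated the first X2 match from the reversed Y core at 48 to 44 bases. A further X1 core match of H2-Aa, in reverse, lay 232 to 226 bases before the start.

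Single motifs are common and their spaced order is rare. Of 32851 windows, 37.4% held CCAAT, 9.85% held ACNGATG and 20.8% held TGACG. An X1 core followed within 40 bases by a reversed Y core was held by 54 windows, or 0.164%, and an X2 core so followed by 187, or 0.569%. The 40-base limit was chosen after the sequences had been seen. The windows of the class II genes H2-DMb2 and H2-Eb2 were also among the 54, with 23 and 22 bases between the cores. Neither H2-DMa window held an X1 or an X2 core, and no other start of H2-DMa was examined. The STAT motif TTCNNNGAA had no match in the windows of H2-Aa, H2-Eb1, H2-DMa and H2-DMb1, against 8.30% of all windows, and the PU.1 core GAGGAA matched once, in that of H2-DMb1, against 28.3% of all windows. A match is a description of letters and not of bound protein.

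The libraries differed in ways that bear on every count. The lists held 23327 to 29501 peaks in FGR libraries and 10862 to 24195 in Ctrl libraries. The lowest local background recovered from the deposited values was 3.52 to 4.82 extended reads per base in FGR libraries and 3.01 to 6.05 in Ctrl libraries. It stands in for depth only where reads were extended to the same length, which the sources used here do not state. Ctrl replicates 1 and 2 had the shortest lists, of 16111 and 10862 peaks, and the widest peaks, with medians of 566 and 522 bp against 353 to 386 bp in the other 6 libraries. In regions shared with any of those 6, their summits were displaced by 138 to 140 bp (median per pair), while pairs among the 6 differed by 22 to 44 bp. FGR replicates 1 and 3 shared 9.14% of summits to the base and FGR replicates 2 and 4 shared 7.57%, against 1.76% to 2.14% for other pairs among the 4 FGR libraries and Ctrl replicates 3 and 4. The libraries of each such pair may therefore not be independent samples. Strength is given below as the percentile of a peak in its own list by the deposited −log10 q, that is, the percent of the peaks of that list with a value at or below it. Percentiles of lists of different length do not measure a change, and a library without a peak is one in which none was called, not one shown to be closed.

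H2-Aa encodes the alpha chain of the I-A class II molecule (chromosome 17, 34282744 to 34287823). A region at its start, 34287645 to 34288169, was called in 4 FGR and 3 Ctrl libraries. The peak stood at the 58.1, 54.5, 73.0 and 65.7 percentile in FGR replicates 1 to 4, and at the 40.6, 72.6 and 44.2 percentile in Ctrl replicates 1, 3 and 4. The values of the groups overlapped, Ctrl replicate 3 lay close to the highest FGR library, and Ctrl replicate 2 had no peak there. At the summits the pileup was 27, 27, 38 and 34 extended reads in FGR replicates 1 to 4, over local backgrounds of 5.36 to 7.58. It was 27, 39 and 34 in Ctrl replicates 1, 3 and 4, over backgrounds of 6.44 to 9.96.

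The 4 FGR summits of H2-Aa lay at the X2 core of the promoter printed above, and the 3 Ctrl summits lay farther from it. FGR replicates 1 to 4 had them at -78, -69, -77 and -69 bp from the start, or 6, 3, 5 and 3 bp from the centre of the X2 core at 74 to 70 bases. Ctrl replicates 3 and 4 had them at -28 and -91 bp, or 44 and 19 bp from that centre. Ctrl replicate 1, whose summits are displaced from those of the other 6 libraries over the whole list, had its summit at -257 bp. Over all shared regions, FGR summits differed from those of Ctrl replicates 3 and 4 by 36 to 44 bp (median per pair). FGR replicates 1 and 3, and 2 and 4, may not be independent. The order did not hold at H2-DMb1, described below, and a difference in summit position was not tested.

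**Figure D1:**
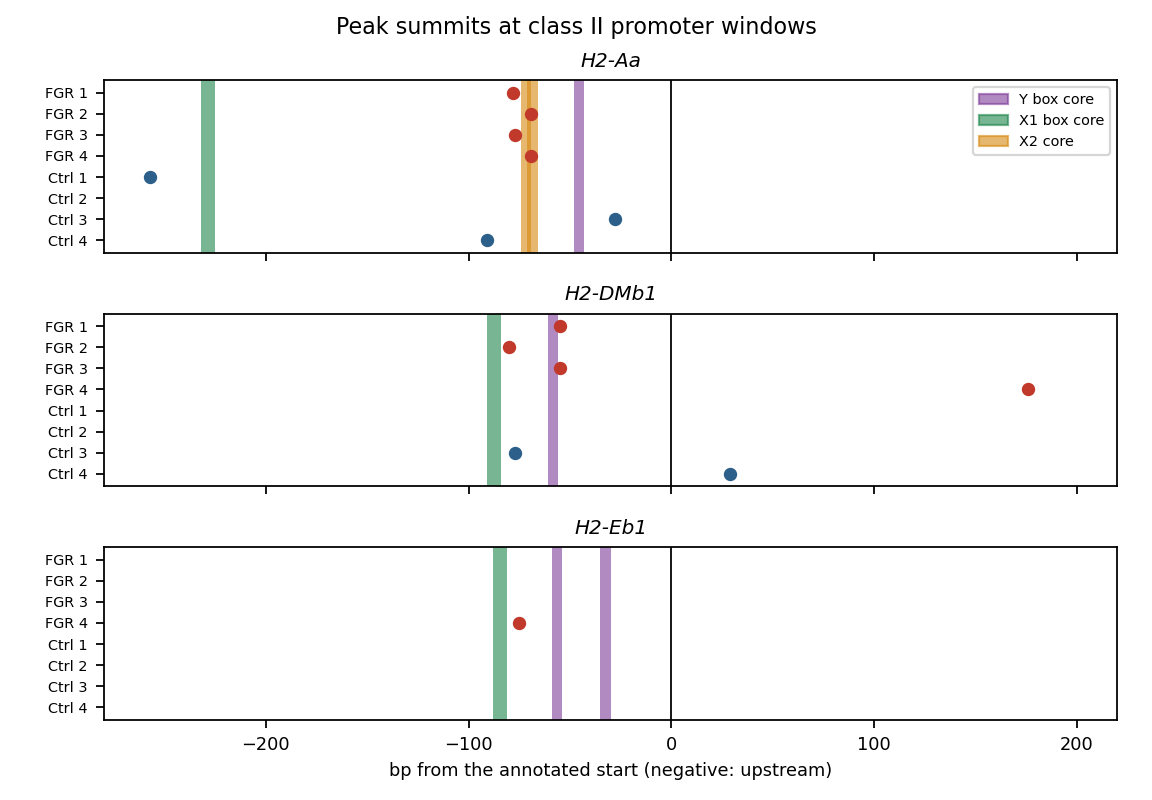
Peak summits relative to the annotated start of H2-Aa, H2-DMb1 and H2-Eb1, in bp with negative values upstream, for FGR libraries (red, upper rows) and Ctrl libraries (blue, lower rows), with motif matches as shaded bands. The 4 FGR summits of H2-Aa lie between -78 and -69 bp, and those of H2-DMb1 between -80 and 176 bp. H2-Eb1 has a summit in FGR replicate 4 alone.

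H2-Ab1 encodes the I-A beta chain (chromosome 17, 34263227 to 34269418). The region at its lower-coordinate end, 34263053 to 34263640, was called in 4 FGR and 3 Ctrl libraries. Its percentiles were 61.7, 37.9, 64.9 and 67.5 in FGR replicates 1 to 4, and 16.8, 52.4 and 4.56 in Ctrl replicates 2, 3 and 4. Ctrl replicate 1 had no peak there, and FGR replicate 2 stood below Ctrl replicate 3. Pileups were 34, 29, 40 and 44 extended reads in the FGR libraries and 22, 34 and 28 in those Ctrl libraries.

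A second region, 34261510 to 34262039, lay 1188 bp outside that end of H2-Ab1. It was called in 4 FGR libraries and 1 Ctrl library, and was the sole one of the 42 regions whose number of libraries differed by 3 or more between the groups. Percentiles were 53.1, 63.1, 63.2 and 48.8 in FGR replicates 1 to 4 and 54.6 in Ctrl replicate 4. Pileups there were 31, 38, 39 and 39 extended reads in FGR replicates 1 to 4 and 40 in Ctrl replicate 4. Fisher's exact test gave p = 0.143 for these 4 against 1 libraries, and an adjusted p of 1 over 28255 regions called in at least 2 libraries. Of those regions, 8.0% were called in 3 or 4 more FGR than Ctrl libraries and 0.4% in 3 or 4 more Ctrl than FGR libraries, and in the class II loci 1 of the 23 tested was of the first kind and 0 of the second. Ctrl replicates 1 and 2, which lacked the peak, have the shortest lists, and the part of list length in the difference was not tested. The strongest region of the H2-Ab1 locus by median percentile over the libraries with a peak was 34257682 to 34257995. It was called in Ctrl replicate 3 alone, at the 67.9 percentile, so that its median is 1 value. In that library the region at the H2-Aa start, also in this locus, stood at the 72.6 percentile.

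H2-Eb1 encodes the beta chain of the I-E molecule (chromosome 17, 34305867 to 34316674). A gene-end peak, meaning a peak within 1 kb of an annotated end, was called for it in 3 FGR and 0 Ctrl libraries. Over all genes, 1.21% had one in 3 or 4 more FGR than Ctrl libraries and 0.174% in 3 or 4 more Ctrl than FGR libraries, and of the 7 genes H2-Eb1 alone was of either kind. The 3 peaks were not the same site. FGR replicate 2 had one at 34304686 to 34304938, 929 bp before the start, at the 2.78 percentile of its list. FGR replicate 3 had one near the other end, at 34315813 to 34316019 and the 27.1 percentile. FGR replicate 4 had one at 34305676 to 34305878, on the promoter printed above, at the 39.2 percentile, with its summit at -75 bp and 10 bp from the centre of the X1 core. Each of these regions was called in 1 library, with no repeat in another FGR library. With all lists cut to the length of the shortest, no library had a gene-end peak of H2-Eb1.

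Between H2-Aa and H2-Eb1, a region at 34295900 to 34296767, 8077 bp above the H2-Aa start, was called in 4 FGR and 3 Ctrl libraries. Its percentiles were 45.0, 67.7, 48.2 and 59.1 in FGR replicates 1 to 4, and 28.1, 65.0 and 56.2 in Ctrl replicates 1, 3 and 4. These ranges overlapped, and Ctrl replicate 2 again had no peak. The H2-Aa, H2-Ab1 and H2-Eb1 loci lie within each other's flanks, so that all 10 regions of the H2-Aa locus were also counted in at least 1 other locus.

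**Figure D2:**
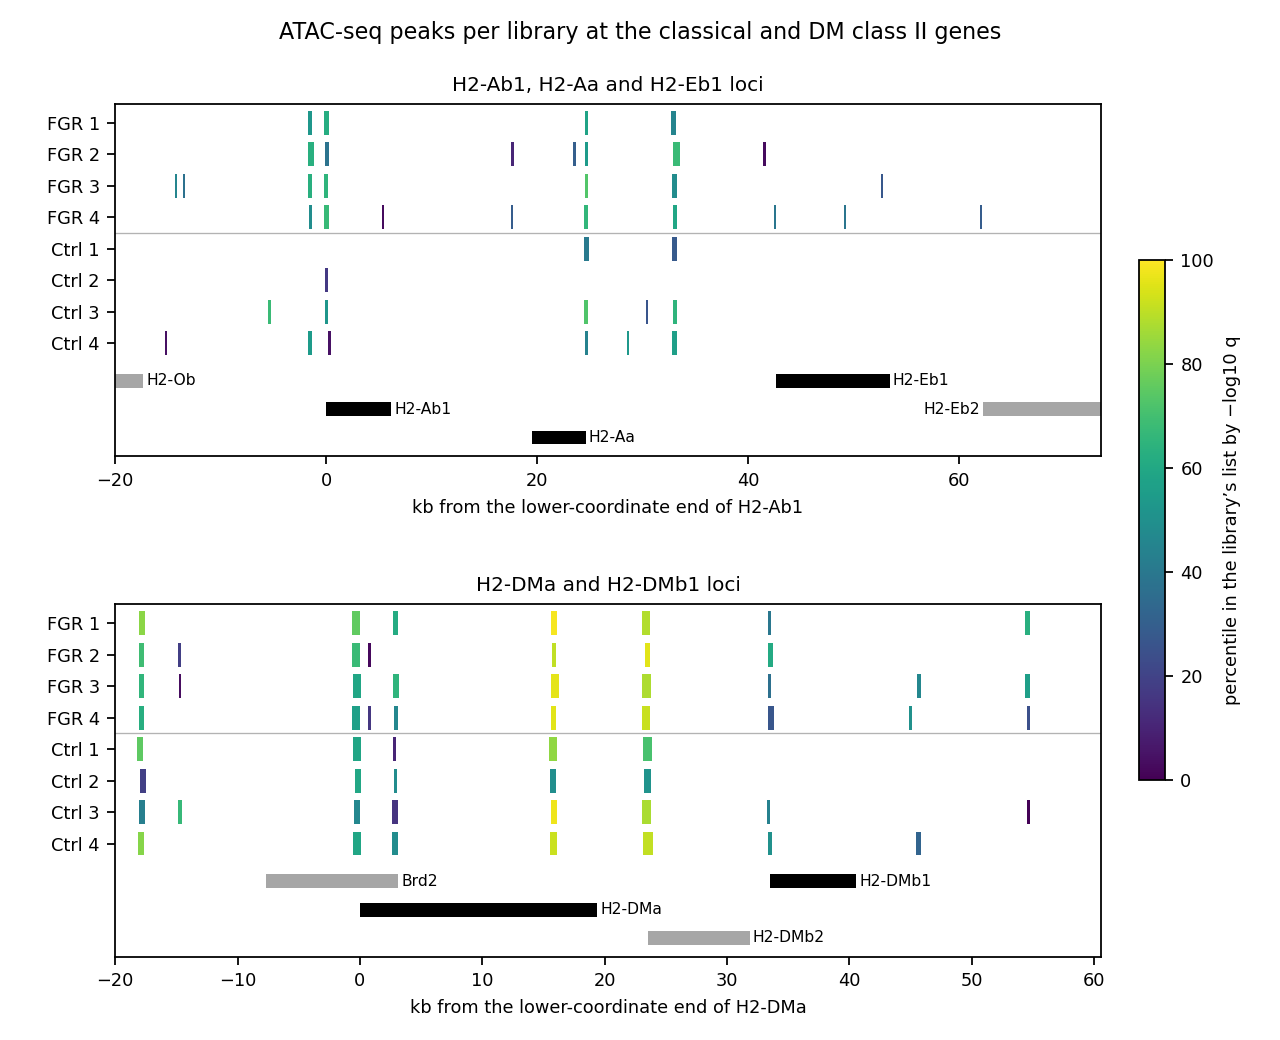
Peaks of each library as boxes, drawn to scale in kb from the lower-coordinate end of H2-Ab1 (upper panel) or H2-DMa (lower panel) and coloured by percentile in the list of the library, with genes below (black for the class II genes described here, grey for neighbours). The sites at the ends of H2-Ab1 and H2-Aa recur in 7 of 8 libraries, while the peaks along H2-Eb1 each belong to 1 FGR library.

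H2-DMa and H2-DMb1 encode the alpha and beta chains of DM, which loads peptides on class II molecules. A region inside the annotated span of H2-DMa, 34135159 to 34135919, was called in all 8 libraries. It stood at the 98.7, 90.5, 95.9 and 95.5 percentile in FGR replicates 1 to 4, and at the 83.5, 49.0, 97.5 and 91.9 percentile in Ctrl replicates 1 to 4. Pileups were 74, 53, 71 and 70 extended reads in FGR replicates 1 to 4 and 51, 26, 75 and 66 in Ctrl replicates 1 to 4. The groups overlapped through Ctrl replicates 3 and 4, and Ctrl replicate 2, the shortest list, was lowest.

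The annotated span of H2-DMa (34119693 to 34139101) reaches into its neighbour Brd2, a chromatin reader gene. The region at 34135159 lay 3182 bp from the nearest end of that span. Ends of H2-DMa are those of this span, and starts inside it other than those of its RefSeq windows were not examined. Whether the region at 34135159 lies at such a start is therefore not known here. The region at the lower-coordinate end of H2-DMa, 34119016 to 34119800, was called in 8 of 8 libraries, at percentiles of 56.3 to 75.7 in FGR and 46.3 to 59.6 in Ctrl libraries. It also lay inside Brd2. A region at the end of Brd2, 34122293 to 34122865, overlapped the first RefSeq window of H2-DMa in 3 FGR and 4 Ctrl libraries. The second window of H2-DMa, whose start is at 34125518, had no peak in any library. Peaks at the shared ends of H2-DMa and Brd2 cannot be told apart by gene.

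Between the DM genes, the region at the end of H2-DMb2 (34142748 to 34143675), a second DM beta gene, was called in all 8 libraries, at percentiles of 87.7 to 95.5 in FGR libraries and 51.3 to 90.9 in Ctrl libraries. The start of H2-DMb1 (chromosome 17, 34153191 to 34160229) had a region at 34152965 to 34153545 in 4 FGR and 2 Ctrl libraries. Percentiles were 39.7, 60.8, 36.5 and 26.8 in FGR replicates 1 to 4, and 43.6 and 50.2 in Ctrl replicates 3 and 4. The Ctrl peaks lay within the FGR range, and Ctrl replicates 1 and 2 had none. The summits stood at -55, -80, -55 and 176 bp from the start in FGR replicates 1 to 4, and at -77 and 29 bp in Ctrl replicates 3 and 4. They lay 33, 8, 33 and 264 bp from the centre of the X1 core in the FGR libraries and 11 and 117 bp from it in the Ctrl libraries. FGR replicates 1 and 3 had the identical summit base here, as FGR replicates 2 and 4 had at H2-Aa. A region 17518 bp from H2-DMa, at 34101496 to 34102175 and nearest to H2-Oa, was also called in all 8 libraries, at percentiles of 62.8 to 82.4 in FGR and 18.6 to 81.7 in Ctrl libraries.

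Cd74 encodes the invariant chain, which blocks the peptide groove and guides class II molecules to endosomes (chromosome 18, 60803849 to 60812652). Its start was overlapped by a peak in 1 library, Ctrl replicate 3, at 60803598 to 60803859 and the 44.6 percentile. In all, 4 of the 8 regions of the locus were called in 1 library each, and Ctrl replicate 2 had no peak in the locus. The most frequent region, 60791969 to 60792443, lay 11406 bp from Cd74 and was called in 4 FGR and 2 Ctrl libraries. It stood at the 40.4, 37.5, 55.6 and 54.4 percentile in FGR replicates 1 to 4, and at the 18.3 and 28.7 percentile in Ctrl replicates 3 and 4. The FGR percentiles were all above the Ctrl ones, but they come from lists of different length. Its pileups of 25, 27, 32 and 35 extended reads in FGR libraries and 25 and 29 in those Ctrl libraries overlapped, and Fisher's exact test on 4 against 2 libraries gave p = 0.429. Inside the gene, a region at 60807236 to 60807788 was called in 1 FGR library and 3 Ctrl libraries.

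Ciita spans chromosome 16 from 10480014 to 10531064, and no library had a gene-end peak for it. Of the 3 regions of the locus called in at least 6 libraries, 1 lay inside Ciita and the others at ends of its neighbours. A region at an end of Dexi, 10542682 to 10543391, was called in 8 of 8 libraries, at percentiles of 65.4 to 96.3 in FGR and 52.8 to 88.1 in Ctrl libraries. One at an end of Clec16a, 10544996 to 10545680, was called in 4 FGR and 3 Ctrl libraries. The one inside Ciita lay at 10521226 to 10521630, 9434 bp from the nearest end of the gene, and was called in 4 FGR and 2 Ctrl libraries. Its percentiles were 28.4, 7.14, 70.4 and 30.5 in FGR replicates 1 to 4, and 32.3 and 14.0 in Ctrl replicates 3 and 4. The Ctrl values lay within the FGR range, which spans most of the list. A further region inside Ciita, 10496047 to 10496365, was called in FGR replicate 3 and Ctrl replicate 4, at percentiles of 2.66 and 9.13.

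**Figure D3:**
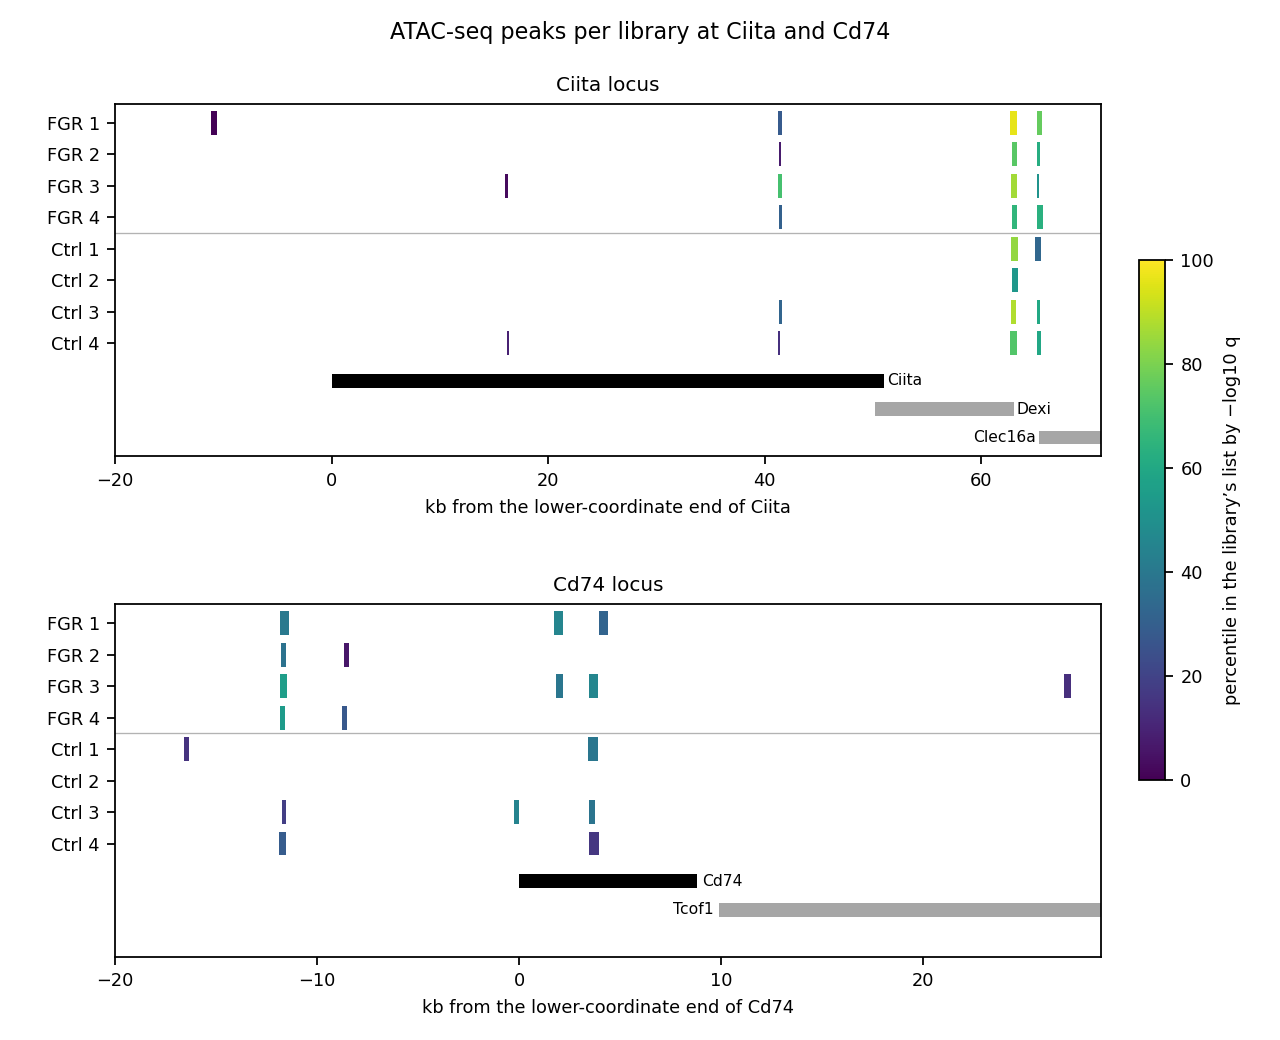
Peaks of each library as boxes, drawn to scale in kb from the lower-coordinate end of Ciita (upper panel) or Cd74 (lower panel) and coloured by percentile, with genes below. The end of Ciita at 0 kb has no peak, the Dexi end has one in all 8 libraries, and the Cd74 end at 0 kb has one in Ctrl replicate 3 alone.

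Most regions of the loci were either shared by both groups or seen in a single library, in shares close to those of the genome. Of the 42 regions, 13 were called in at least 6 libraries, which is 31.0% against 27.6% of all regions, and 19 in a single library, which is 45.2% against 45.9%. Regions called in FGR libraries alone numbered 17, or 40.5% against 42.3% of all regions. Of these 17, 13 were called in 1 library, 4 in 2 libraries and none in more. Regions called in Ctrl libraries alone numbered 6, or 14.3% against 14.9%, and each was called in 1 library. None of the 23 regions tested was called in 4 FGR and 0 Ctrl libraries or the reverse, against 1.61% and 0.0495% of the 28255 regions tested. Fisher's exact test passed no region after adjustment, 0 of 28255, and 468 regions reached its smallest unadjusted p of 0.0286, none of them in the class II loci. A p of that size cannot pass this adjustment unless most regions reach it.

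**Figure D4:**
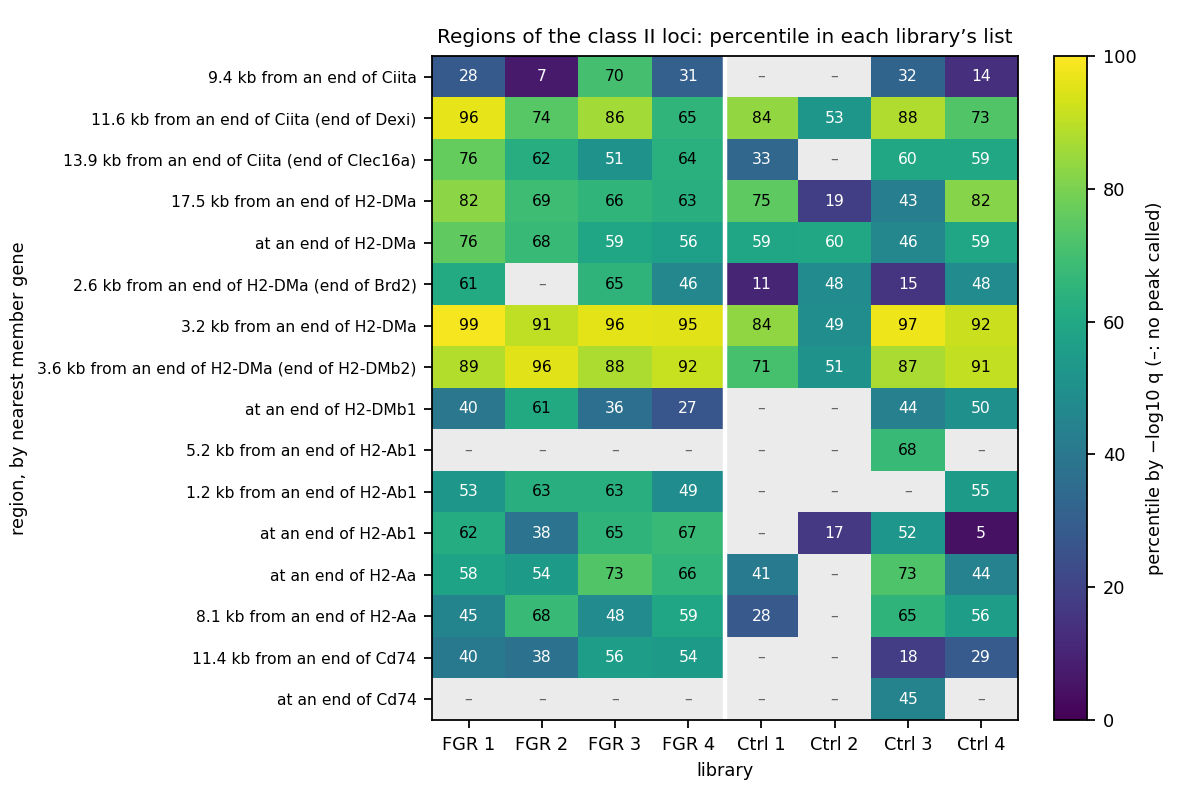
Percentile of the peak in the list of each library (columns, FGR left of Ctrl) for the 16 regions of the class II loci that were called in at least 6 libraries, differed by 3 or more libraries between groups, or were the strongest of a locus (rows, by distance to the nearest class II gene). A dash marks no called peak. The strongest region was taken by median percentile over the libraries with a peak, which for H2-Ab1 and Cd74 was 1 library. The H2-DMa region at 3.2 kb reaches 98.7 in FGR replicate 1 and 49.0 in Ctrl replicate 2, and most dashes are in Ctrl replicates 1 and 2.

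In number of peaks per locus, FGR and Ctrl libraries did not differ beyond the spread between libraries for any of the 7 genes. Together the loci held 18, 19, 24 and 23 peaks in FGR replicates 1 to 4, and 11, 7, 19 and 19 in Ctrl replicates 1 to 4. FGR replicate 1 lay below Ctrl replicates 3 and 4, so the groups overlapped, and the low values were those of Ctrl replicates 1 and 2. Divided by list length, this was 7.91 ± 0.915 peaks per 10000 in FGR and 7.37 ± 0.891 per 10000 in Ctrl libraries (SD, n = 4 each). This scaled difference, FGR minus Ctrl, was 0.541 per 10000, and it turned to -0.196 without Ctrl replicates 1 and 2. In replicates 3 and 4 the means were 23.5 peaks in FGR and 19.0 in Ctrl libraries, or 8.45 and 8.11 per 10000.

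The H2-Ab1 locus had the largest log2 difference of the 7. It held 3, 5, 5 and 5 peaks in FGR replicates 1 to 4 and 1, 1, 3 and 4 in Ctrl replicates 1 to 4, so that Ctrl replicates 3 and 4 lay within the FGR range. With 0.5 added to each count, and counts divided by list length in units of 10000 peaks, the log2 difference was 0.42 ± 0.26 (SE). Its adjusted p from limma was 0.332 over 8037 loci. The difference was 0.13 without Ctrl replicates 1 and 2, 0.23 without Ctrl replicate 1 and 1.01 with undivided counts. H2-DMa held 6, 7, 7 and 7 peaks in FGR and 5, 5, 7 and 6 in Ctrl replicates 1 to 4, which differed by -0.36 ± 0.21 on that scale (SE, adjusted p = 0.300 from limma). There the sign rests on the scaling, since undivided counts gave 0.22. H2-Eb1 averaged 3.5 ± 1.29 peaks in FGR and 2.0 ± 1.41 in Ctrl libraries, and H2-Aa 4.5 ± 1.73 and 2.75 ± 1.5. H2-DMb1 averaged 4.25 ± 0.957 peaks in FGR and 3.0 ± 1.15 in Ctrl libraries, Cd74 2.75 ± 0.957 and 1.75 ± 1.26, and Ciita 3.5 ± 0.577 and 2.5 ± 1.29 (SD, n = 4 each). Log2 differences of these 5 loci lay between -0.11 and 0.37, with limma adjusted p between 0.506 and 0.872.

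All 7 loci had the mean of at least 2 peaks that was needed for the test. Of the 8037 loci, limma called 0.0124% higher and 0.0% lower in FGR after adjustment, with 2.6% higher and 15.6% lower at an unadjusted p under 0.05, and no class II locus was among either. The differences of 4 of the 7 loci were above 0, with a median of 0.10 on the log2 scale, while 22.5% of all loci were above 0, with a median of -0.28. Undivided counts moved the medians to 0.69 for the 7 loci and 0.31 for all loci. Loci that share peaks are not separate observations, so these are descriptions of 7 overlapping values.

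**Figure D5:**
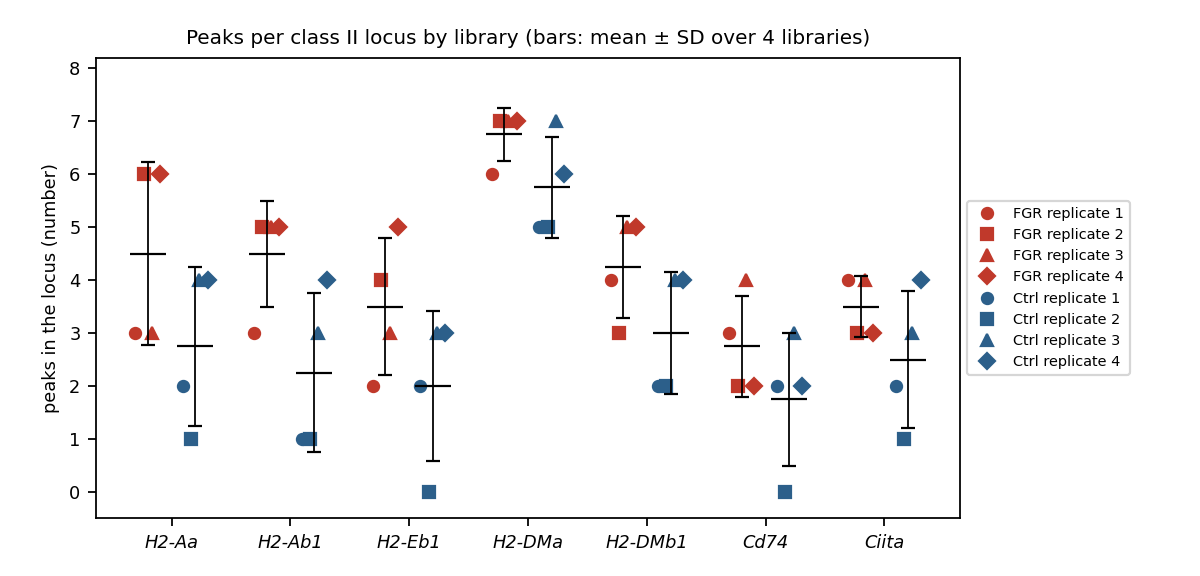
Number of peaks in each of the 7 loci by library, FGR in red left of Ctrl in blue, one symbol per replicate number, with black bars for the mean and SD over 4 libraries. The groups overlap at every locus, and Ctrl replicates 1 and 2 give most of the low counts.

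Gene-end peaks were also counted for other genes of the pathway, and no difference between the lists was tested. Over all genes, 31.9% were called at an end in every library and 42.2% in none. Of the 7 genes described here 1 had one in all libraries (H2-DMa) and 1 in none (Ciita). Among 4 other class II genes, H2-DMb2 had one in all libraries, H2-Ob, part of the DM inhibitor DO, in 4 FGR and 3 Ctrl, H2-Oa, its partner, in 4 FGR and 2 Ctrl, and H2-Eb2 in 2 FGR and 3 Ctrl libraries. Of 9 genes of the interferon gamma signal that induces Ciita, 8 had one in all libraries, among them the receptor genes Ifngr1 and Ifngr2 and the kinase gene Jak1. Of 7 genes for the proteins that hold Ciita at promoters, 4 had one in all libraries and 2, the RFX subunit gene Rfx5 and the NF-Y subunit gene Nfyc, in none. Of 9 class I pathway genes 6 had one in all libraries, with H2-K1, H2-D1 and B2m, the chains of class I molecules, among them.

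Among 6 genes of antigen processing and turnover, the protease genes Ctsl and Ctsb had a gene-end peak in all libraries, as did Lgmn. The gene of cathepsin S, Ctss, which trims the invariant chain, had one in 1 FGR and 1 Ctrl library. Of 4 costimulation genes none had one in all libraries, with Cd80 in 4 FGR and 3 Ctrl libraries, Cd86 in 3 FGR and 4 Ctrl libraries and Cd40 in none. No gene of these lists other than H2-Eb1 differed by 3 or more libraries between the groups, and no locus of theirs passed the limma test. All of these counts include either end of a gene.

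Markers of microglia and of other cell types were counted the same way. Over all genes, 44.7% to 48.5% had a gene-end peak in an FGR library and 34.8% to 48.3% in a Ctrl library. Of 9 microglia markers, 6 to 8 had a gene-end peak in an FGR library and 4 to 7 in a Ctrl library, and their loci held 32 to 42 and 14 to 33 peaks. Tmem119, Cx3cr1 and Sall1, which define microglia, had one in all libraries, P2ry12 in 1 and Gpr34 in none. Of 8 border macrophage markers the counts were 1 to 2 in FGR and 0 to 1 in Ctrl libraries (7 to 12 and 3 to 11 peaks in their loci), with Cbr2 in 7 libraries, Mrc1 in 1 and the other 6, Cd163 and Lyve1 among them, in none. Of 6 dendritic cell markers they were 2 to 4 in FGR and 1 to 3 in Ctrl libraries (12 to 20 and 3 to 17 peaks), with Xcr1 in 8 libraries, Flt3 in 6, Clec9a in 3, Itgax in 2, and Zbtb46 and Cd209a in none. Of 5 B cell markers they were 0 to 1 in FGR and 0 to 2 in Ctrl libraries (7 to 11 and 4 to 9 peaks). Of 5 T cell markers FGR libraries had 0 to 1 and Ctrl libraries 0 (11 to 16 and 3 to 9 peaks), and none of 5 monocyte markers had one in any library (3 to 10 and 0 to 8 peaks). Whether other cells contribute to peaks of the class II loci was not tested, and in bulk samples fewer cells with an open site and less opening per cell cannot be told apart.

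The likeness of each locus to other genes was measured as the mean absolute difference, over 8 libraries, in the percentile of the strongest peak of the locus, with 0 for a library without peaks. For H2-Aa the nearest genes over 1 Mb away from the 7 were Tubgcp6, Ppp5c and Efhd2, at 3.76, 4.29 and 4.56 percentile points, against a median of 34.6 for all genes. H2-Ab1 was nearest to Tubgcp6, Ppp5c and Mcm2, at 4.20 to 4.87 points. H2-Eb1 was nearest to Pgbd5, Nlrp3 and Trerf1, at 2.97 to 3.57 points. H2-DMa was nearest to Engase, Rbfox3 and Txn2, at 1.97 to 1.99 points, and H2-DMb1 to Plxna4, Nucb2 and Card6, at 2.06 to 2.31 points. Cd74 was nearest to Zfp760, Napg and Btbd3, at 4.73 to 5.81 points, and Ciita to Trmt13, Sass6 and Lrrc39, at 3.57 to 3.70 points. The Ciita profile is that of the peak at Dexi. That of H2-Eb1 comes from the peaks at the H2-Aa start and 8077 bp above it. H2-Ab1 takes the peak at the H2-Aa start in FGR replicate 3 and Ctrl replicates 1 and 3. H2-Aa takes the peak at the lower-coordinate end of H2-Ab1 in FGR replicates 1 and 4 and Ctrl replicate 2. In FGR replicate 2 and Ctrl replicate 4, H2-Aa takes the peak 8077 bp above its start. H2-DMa and H2-DMb1 have the same strongest peak except in Ctrl replicate 2. Engase and Rbfox3 had identical differences, as had Trmt13 and Sass6, and whether such genes share a peak was not tested.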

How the data were processed

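The data were 8 peak lists, 1 per library and not pooled, per the file headers and peak names. The submitters' processing notes list MACS2 2.2.7.1 and DiffBind 3.12.0, Bowtie2 2.4.5, Trim Galore 0.6.5, SAMtools 1.3.1 and the mm10 build, and libraries were made with a Vazyme kit, per the labels. The sources used here do not state read shifting, duplicate removal or peak calling settings, any of which would move summits and the number of weak peaks. The deposited score is a display value and was not used. The deposited fold is a ratio of pileup to local background, and the authors' −log10 values of p and q belong to each peak and were used only within their list. For each peak, a whole-number pileup and a local background were solved from these fold and −log10 values through a Poisson tail, which fitted 100% of peaks within 0.001. The smallest deposited −log10 q was 1.31.

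Gene ends and promoter windows came from RefSeq tables. Of 84 listed symbols, 84 matched. The number of peaks in a locus was taken plus 0.5, per 10000 peaks, as log2, and fitted across groups in limma 3.58.1 (R 4.3.3, trended variance) where loci averaged 2 or more peaks, and Benjamini-Hochberg adjusted p-values had a threshold of 0.05. Regions were compared with Fisher's exact test, two-sided. The remaining work ran in Python 3.11.15 with scipy 1.17.1, statsmodels 0.14.6, pandas 2.3.3, numpy 2.4.6 and matplotlib 3.10.9, and scripts were tested on simulated data. Alternatives covered peak strength, list length, flank, pseudocount, filter, scaling, peak assignment, overlap, the replicate block and left-out libraries. The genes and lists were chosen with earlier results of these data known. Named regions were those called in at least 6 libraries, those differing by 3 or 4 libraries, and the strongest of each locus. Other genes were named when they differed so, with up to 3 more per list as examples, and further ones were chosen after their values were seen.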

Additional observations from a re-analysis of the deposited data

Results flagged for a closer look

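In a comparison of 56 sets of 4 libraries, 4 held a library whose gap to the others exceeded Dixon's 95% critical value, which chance gives in about 1 of 20 such sets. FGR replicate 1 had 3 peaks in the H2-Ab1 locus and 6 in the H2-DMa locus, where the other FGR libraries all had 5 and 7, so that a difference of 1 or 2 peaks set these apart. At the region 1188 bp from H2-Ab1, FGR replicate 1 had a pileup of 31 extended reads, against 38 to 39 in the other FGR libraries. Ctrl replicate 3 had the region at the lower-coordinate end of H2-DMa at the 46.3 percentile of its list, against 58.7 to 59.6 in the other Ctrl libraries.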

How the results depend on the processing

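Over 20 alternatives the log2 differences of the 7 loci gave 130 values, none past the limma threshold (smallest adjusted p 0.149), and 19 had the opposite sign to the value reported. Some loci fell under the filter with equal-length lists, −log10 q of at least 5 or 10 kb flanks and gave no value. The cause of the reversals was not tested. H2-Ab1, at 0.42 as reported, was positive in all its 18 values, from 0.13 without Ctrl replicates 1 and 2 to 1.01 with undivided counts. It was 0.20 with 50 kb flanks, 0.27 with a pseudocount of 1, 0.22 in replicates 3 and 4 and 0.86 with −log10 q of at least 5, and ranged from 0.23 (without Ctrl replicate 1) to 0.60 with 1 library left out. H2-Aa reversed to -0.092 without Ctrl replicates 1 and 2, -0.16 in replicates 3 and 4 only (an alternative chosen after seeing the data), and -0.11 and -0.049 without FGR replicate 2 or 4, within a range of -0.11 to 0.30 when 1 library was left out. H2-Eb1 reversed to -0.044 without Ctrl replicates 1 and 2 and -0.062 without Ctrl replicate 2, the low end of its range to 0.59. Cd74 reversed to -0.32 with 50 kb flanks, -0.0080 with a pseudocount of 1, -0.085 without Ctrl replicates 1 and 2, -0.066 in replicates 3 and 4 and -0.18 without Ctrl replicate 2, the low end of its range to 0.40. Ciita reversed to 0.22 with 50 kb flanks, 0.52 with undivided counts and 0.0093 without Ctrl replicate 4, the high end of its range from -0.13. H2-DMa reversed to 0.072 with equal-length lists and 0.22 with undivided counts, and H2-DMb1 to 0.24, 0.48 and, in replicates 3 and 4, 0.042.

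Over all loci, limma called 1 higher and 0 lower in FGR. It called 13 and 7 with equal-length lists, 7 and 50 with a pseudocount of 1, 7 and 9 without the filter, 10 and 1 with undivided counts, and 1 and 2 with 10 kb flanks. It called 0 higher with replicates 1 and 3, and 2 and 4, averaged within each group. Of the pairs so averaged, only the FGR ones shared summits to the base more often than other pairs. The Ctrl pairs shared 0.0071% and 0.040%. Summits of Ctrl replicates 1 and 2 are displaced over the whole list, so this share cannot show whether the Ctrl pairs were alike. Limma also called 0 higher without Ctrl replicates 1 and 2 and in replicates 3 and 4. When 1 library was left out, it called between 0 and 8 higher and 0 and 7 lower. With the replicate number as a block it called 54 higher and 87 lower, none of the 7 loci among them. Same-numbered libraries had deviations correlated over loci at -0.018, 0.098, 0.067 and 0.029, and differently numbered FGR and Ctrl libraries at -0.121 to 0.108. The numbers were therefore not taken as pairing.

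The difference of 7 peaks in the class II loci fell to 1.25 with equal-length lists and to 2 without Ctrl replicates 1 and 2, and ranged from 4.67 to 8.67 with 1 library left out. Per 10000 peaks, the difference of 0.541 turned to -0.196 without Ctrl replicates 1 and 2 and was 0.173 with 50 kb flanks, 0.339 in replicates 3 and 4, 1.15 with equal-length lists and 1.25 with −log10 q of at least 5. It ranged from 0.232 (without Ctrl replicate 2) to 0.975 (without FGR replicate 1) with 1 library left out. The count of regions with peaks in 4 FGR and 0 Ctrl libraries, 0 as reported, was 1 with −log10 q of at least 5 (the region 11406 bp from Cd74) and between 0 and 1 with 1 library left out, the 1 being the region 1188 bp from H2-Ab1 without Ctrl replicate 4. For H2-Eb1 the share of libraries with a gene-end peak, FGR minus Ctrl, differed by 0.75 as reported. It fell to 0.25 among peaks with −log10 q of 5 or more, and to 0 with equal-length lists. For H2-Ab1 the same q limit raised it from 0.25 to 0.75, while it was 0 without Ctrl replicates 1 and 2. For H2-DMb1 it fell from 0.5 to 0 without Ctrl replicates 1 and 2 and in replicates 3 and 4. For H2-DMa it moved from 0 to -0.25 with equal-length lists. A site without a called peak was not detectable in that list, and the part of depth in these differences was not tested.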

Other observations

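The 54 promoter windows with an X1 core followed within 40 bases by a reversed Y core were overlapped by peaks about as often as other windows. A peak in at least 6 libraries overlapped 16 of them, or 29.6%, against 27.4% of all 32851 windows. Of the class II windows in that set, the H2-DMb1 window was overlapped in 6 libraries, those of H2-Eb1 and H2-Eb2 in 1 each and that of H2-DMb2 in none. The H2-DMb2 window, 34144999 to 34145298, does not reach the region at an end of that gene, 34142748 to 34143675, which was called in all 8 libraries. The window of H2-Ob, with a Y core and no X1 core, was overlapped in 3 libraries.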
